A study of Saccharomyces cerevisiae with 24 samples.

Results

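The tips of the yeast chromosomes, taken as every sub-nucleosomal peak whose position lay at most 5 kb from either end of a chromosome, held 716 of the 58467 peaks of the table. They covered all 32 ends, with 16 to 29 peaks an end, and an end is named here by its chromosome and arm (XIIL is the left end of chromosome XII). Sub-nucleosomal MNase-seq reads DNA fragments shorter than 100 bp that survive digestion by micrococcal nuclease, so that a peak marks a short protected stretch, such as one under a DNA-binding protein.

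The study asked how the chromatin of *Saccharomyces cerevisiae* behaves when replication of the whole genome is advanced by high levels of 6 initiation factors. A control strain and an *SSDDCS* strain were arrested in G1, given galactose, and released into S phase in galactose, with samples in G1 and at 11 timepoints from 5 to 60 min. Each strain and timepoint had 1 library, 24 in all, so no replicate error could be given and no significance test was made, and the intervals below are 95% intervals that cover counting error only. Timepoints of 1 culture are not replicates of each other.

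Both strains were MATa cells of the W303 background with ade2-1, ura3-1, trp1-1, can1-100 and rad5-535 alleles, besides his3-11, 15 and leu2-3, 112. Both lacked SML1, an inhibitor of ribonucleotide reductase, the control by sml1_delta::URA3 and the *SSDDCS* strain by sml1_delta::HphNT per the labels (HphMX in the study's strain list). The *SSDDCS* strain also carried Sld2 and Dpb11 (trp1::Sld2-PGAL1-10-Dpb11::TRP1), Sld7 and Cdc45 (leu2::Sld7-PGAL1-10-Cdc45::LEU2), and, at his3 with a HIS3 marker, SLD3-A and Dbf4-A (SLD3-A-PGAL1-10-Dbf4-A), each pair driven by the galactose-inducible GAL1-10 promoter. Each strain was followed as a single time course. Reads of these W303 cells were placed on the reference of another strain, S288C, whose outermost sequences can differ from theirs. As a check of the labels, the 3 peaks between GAL10 and GAL1, a promoter of which the *SSDDCS* strain has additional copies, held a mean of 45.0 normalised reads in the control and 175 in *SSDDCS*, with log2 ratios of 1.41 to 2.54 over the 12 pairs of libraries. Library totals over all peaks were 484807 to 536253 reads in the control and 481930 to 518046 in *SSDDCS*. The ribosomal DNA took 26.8 to 36.5% and 25.8 to 36.3% of them, and the tips 1.30 to 1.85% and 1.51 to 2.02%.

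Yeast chromosomes end in irregular TG-rich repeats, which Rap1 binds along their length. Next to the repeats lies an X element, whose core holds an origin consensus and a site for the general regulatory factor Abf1, and at many ends one or more copies of the longer Y′ element sit between the X element and the terminal repeats. Reb1 and Tbf1, a further pair of general regulatory factors, bind sites in subtelomeric repeats. Genes near the ends are known for silencing by Sir proteins, and these regions as a rule replicate late in S phase. In the RefSeq annotation of the R64 assembly, 17 ends carried a Y′ element (10 a long and 7 a short form) and 15 had an X element alone, called X-only ends below.

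The windows printed here show the DNA under the peaks on which the results turn, each the peak position with 50 bases on either side, from RefSeq R64, 5′ to 3′ on the plus strand. First are the strongest Reb1 window, at the left end of XII, and one of the shared Y′ windows, at the left end of XIV, with the letters TTACCCG for Reb1 in capitals. In the XIVL window the Tbf1 letters TTAGGG, read on the minus strand, and a match to the ARS consensus are in capitals too.
XIIL Reb1, chrXII:85-185: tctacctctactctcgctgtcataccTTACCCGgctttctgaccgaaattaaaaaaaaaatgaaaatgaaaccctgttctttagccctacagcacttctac
XIVL Reb1, chrXIV:83-183: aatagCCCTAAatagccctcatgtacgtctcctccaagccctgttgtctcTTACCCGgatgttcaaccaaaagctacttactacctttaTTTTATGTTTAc
Next are the pair of strongest telomeric repeat windows, with the letters GGGTGTG, on either strand, in capitals. The window at the right end of VIII lies at the very end, and that at the left end of VI lies inside the chromosome, in a stretch of repeats within the annotated telomere.
VIIIR repeat, chrVIII:562465-562565: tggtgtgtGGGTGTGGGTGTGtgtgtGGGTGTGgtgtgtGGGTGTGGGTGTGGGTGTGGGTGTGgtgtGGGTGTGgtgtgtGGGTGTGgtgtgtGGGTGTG
VIL repeat, chrVI:4684-4784: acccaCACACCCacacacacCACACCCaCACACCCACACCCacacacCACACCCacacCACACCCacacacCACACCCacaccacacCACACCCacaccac
The strongest tip peak of all lay 150 bp from the VIL repeat window. It held none of the motifs searched, so it has no capitals.
VIL strongest, chrVI:4534-4634: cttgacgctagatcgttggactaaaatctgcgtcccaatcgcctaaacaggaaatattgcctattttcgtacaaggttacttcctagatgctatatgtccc
The windows of the X element that matched the Abf1 consensus are shown because their change from G1 differed most between the strains at 20 to 30 min. Their 13 matching bases are in capitals. Those of IIIL and IL are the same, those of XR are their reverse complement, and those of VIR differ.
IIIL Abf1, chrIII:779-879: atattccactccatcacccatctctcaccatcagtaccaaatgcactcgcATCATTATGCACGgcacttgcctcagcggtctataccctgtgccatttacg
XR Abf1, chrX:745122-745222: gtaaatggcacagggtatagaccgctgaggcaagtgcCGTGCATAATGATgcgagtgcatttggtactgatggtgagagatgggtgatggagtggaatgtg
IL Abf1, chrI:479-579: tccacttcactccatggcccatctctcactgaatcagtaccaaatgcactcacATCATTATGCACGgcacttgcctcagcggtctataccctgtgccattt
VIR Abf1, chrVI:269935-270035: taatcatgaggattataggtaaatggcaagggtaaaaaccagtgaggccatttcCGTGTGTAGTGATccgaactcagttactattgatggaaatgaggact
Last is the Y′ window with the highest strain ratio, inside YRF1-3 at the right end of VII. Its central 51 bases, in capitals, occur 17 times in the reference.
VIIR Y′, chrVII:1090107-1090207: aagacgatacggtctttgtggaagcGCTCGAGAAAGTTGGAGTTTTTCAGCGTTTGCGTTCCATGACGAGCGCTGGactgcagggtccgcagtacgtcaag

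Much of this DNA is repeated. The central 51 bases of 491 tip peaks (68.6%) occurred more than once in the reference, with up to 31 copies. At Y′ ends this held for 376 of 393 peaks (95.7%, a median of 12 copies) and at X-only ends for 115 of 323 (35.6%). How reads with several possible places were assigned is not given in the sources used here, so the reads of a Y′ peak cannot be told apart from those of its copies at other ends.

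Per kb, the tips as a whole held more sub-nucleosomal reads than the DNA farther in, the ribosomal DNA left out, and mainly at Y′ ends. Of the 716 tip peaks, 359 (50.1%) were high-confidence, a peak whose log2 normalised reads sum to more than 75 over the 24 libraries, against 17.8% of the 3687 peaks at 5 to 30 kb and 13.2% of the 53898 peaks of the chromosome interior, beyond 30 kb and outside the ribosomal DNA. Per kb, the tips held 54.3 normalised reads, the 5 to 30 kb region 31.7 and the interior 28.7. Y′ ends held 72.8 reads per kb and X-only ends 33.4, and the high-confidence peaks were divided as 302 and 57.

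The reads were concentrated at the outermost bases. In the outer 200 bp the 31 peaks averaged 58.6 normalised reads, or 284 reads per kb, which was down to 106 per kb at 200 to 500 bp and 30.3 per kb at 2 to 3 kb. The outer 200 bp held 363 reads per kb at Y′ ends and 194 at X-only ends. From 3 to 5 kb the Y′ ends were at 61.5 and then 75.8 reads per kb while the X-only ends stayed at 19.6 and 20.6. The last peak inside the limit of 5 kb, 4986 bp from the left end of XII, had means of 9.81 normalised reads in the control and 11.8 in the *SSDDCS*. The first peak outside it, at 5031 bp on XVL, had 3.32 and 2.46.

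**Figure D1:**
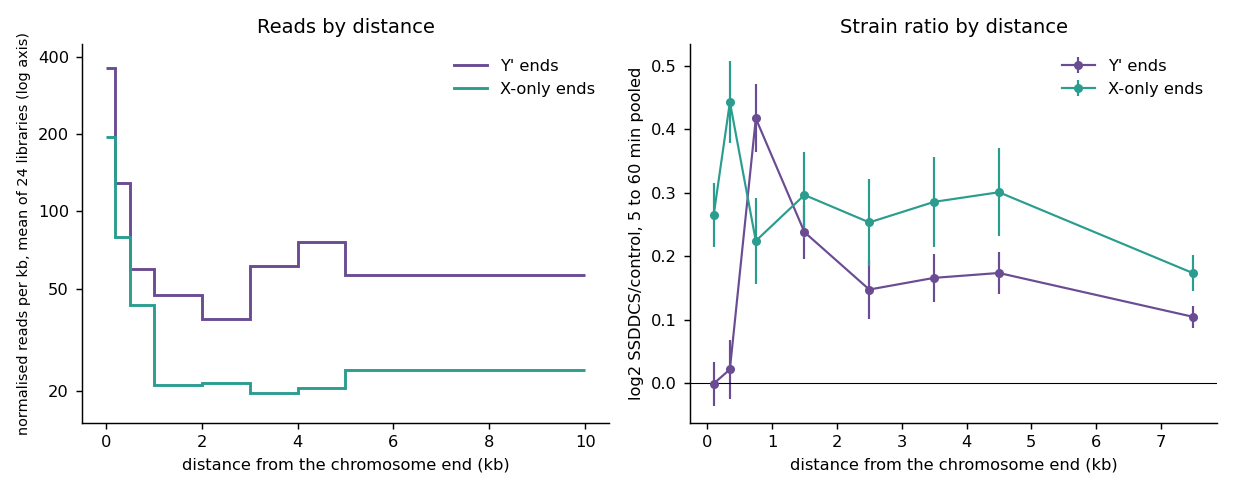
Left, normalised sub-nucleosomal reads per kb (mean of 24 libraries, log axis) by distance from the chromosome end in kb, for the 17 Y′ ends and the 15 X-only ends. Right, the log2 *SSDDCS*/control ratio of the reads pooled from 5 to 60 min in the same bins, with 95% counting intervals. The outer 200 bp stood highest at both kinds of end, and the Y′ ratio went from 0.00 there to 0.42 at 500 to 1000 bp.

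The tip peaks were sorted by sequence into 3 motif classes and the remaining peaks, a grouping made after the values had been seen, and by their letters alone. A match is a description of the letters, not of a bound factor. The Reb1 letters were in 15 of 711 full-length tip windows (2.11%), all of them at Y′ ends, against 0.951% of all peak windows of this length. The Tbf1 letters were in 30 (4.22% against 2.39%). At least 1 match to GGGTGTG was in 15 (2.11% against 0.556%), and 3 or more matches in 13 (1.83% against 0.0291%). The Abf1 consensus was in 13 tip windows (1.83% against 1.99%), all at X-only ends, where it was in 4.08% of windows, and the ARS consensus in 7 (0.985% against 0.368%). The tips are richer in high-confidence peaks, and among high-confidence windows alone the Reb1 share of the tips was 4.23%, beside 4.4% of all such windows. The Tbf1 share was then 7.61% beside 3.38%, that of GGGTGTG 3.94% beside 0.998% and that of the Abf1 consensus 2.54% beside 8.22%. Both strands were searched. The telomeric repeat class (17 peaks, 3 or more matches, windows shortened by the chromosome end included) took 11.6% of the tip reads, the Reb1 class (15 peaks) 15.0% and the Abf1 class (13 peaks) 3.23%. Of the remaining peaks, 375 lay at Y′ ends (52.7% of reads), 19 inside the annotated telomere of X-only ends (2.67%) and 277 in the flank of X-only ends beyond it (14.8%).

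The strongest peak lay 4584 bp from the left end of VI, 738 bp upstream of YFL064C, and had between 132 and 237 normalised reads in the control and between 151 and 223 in *SSDDCS*. Its log2 ratio after G1 was -0.12. The second, at 135 bp on XIIL, held the Reb1 letters in a window that occurs once in the reference and had 145 to 246 reads in the control and 156 to 220 in *SSDDCS*, with a ratio of -0.01. Both peaks overlapped in range between the strains. Of the next 8, XVR at 76 and 176 bp, IXL at 229 bp, XL at 230 bp (next to the annotated origin ARS1001) and XIVL at 133 bp held the Reb1 letters and had ratios of -0.01, -0.14, -0.14, -0.22 and -0.19. The remaining 3 were telomeric repeat windows. VIIIR at 128 bp had 79.2 to 196 reads in the control and 144 to 194 in *SSDDCS*, with a ratio of 0.34. The repeat inside VIL at 4734 bp had 55.3 to 148 reads (median 107) against 122 to 189 (median 157), was higher in *SSDDCS* at 11 of 11 timepoints after G1, and had a ratio of 0.50. XIVR at 229 bp had 61.02 to 162 reads against 113 to 183, with a ratio of 0.34. Among the 10 strongest peaks the repeat windows were thus the ones above 0, and the Reb1 windows were at or below it.

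Over all 716 tip peaks, the *SSDDCS* strain had more sub-nucleosomal reads than the control at every timepoint when scaled to the library total, and at every timepoint but 60 min when scaled to the reads outside the ribosomal DNA. The tips summed to 6614 normalised reads in the lowest control library (5 min), a median of 8299 and 9389 in the highest (45 min). In *SSDDCS* the lowest library was G1 with 7647, the median 9370 and the highest 10244 (45 min). The ranges of the strains overlapped. The strain ratio (log2 *SSDDCS*/control) was 0.15 (0.11 to 0.20) in G1, 0.30 (0.28 to 0.32) over 5 to 25 min and 0.11 (0.09 to 0.12) over 30 to 60 min. It was between 0.29 and 0.31 at each of the 5 early timepoints, 0.11 at 30 min and 0.04 at 35 min. Pooled over the 11 timepoints after G1 it was 0.19 (0.18 to 0.20). As galactose preceded the G1 sample, G1 stands before release but not before induction.

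The difference at the tips began earlier than that of the neighbouring DNA. At 5 to 30 kb the ratio was 0.01 (-0.02 to 0.03) in G1, 0.10 at 5 min, 0.07 at 10 min, 0.23 at 15 min and 0.32 (0.29 to 0.35) at 20 min, when it equalled the tips' 0.31 (0.27 to 0.35) within counting error. The interior lay between -0.03 and 0.10 throughout. Since a share of the library can move when another share does, the ratios were also taken against the interior of the same library, which no scaling can alter. The tips were then higher in *SSDDCS* by 0.18 (0.14 to 0.23) in G1, by 0.26 (0.24 to 0.28) over 5 to 25 min and by 0.09 (0.07 to 0.11) over 30 to 60 min, and at 60 min the difference was 0.00 (-0.04 to 0.04). Scaling to reads outside the ribosomal DNA shifted all ratios by between -0.12 (20 min) and 0.03. The tip ratio was above 0 at 10 of 11 timepoints in that scaling, with 60 min at 0.00, and the excess at 20 min over G1 was 0.01 in place of 0.15.

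Within each strain, the tips took a larger part of the reads later in the time course. Relative to the interior and to G1, control tips were at -0.03 at 5 min, -0.05 at 10 min, 0.11 at 15 min, 0.21 (0.16 to 0.25) at 20 min and 0.32 (0.27 to 0.36) at 60 min. *SSDDCS* tips were at 0.04, 0.07, 0.20 and 0.23 (0.18 to 0.27) at the first 4 of these times and at 0.13 (0.09 to 0.18) at 60 min. They dipped to 0.07 and 0.05 at 30 and 35 min, where the control had 0.19 and 0.20. The gain at 15 and 20 min was not seen over the 225 single-copy tip peaks, where the control was at -0.07 and -0.0039 and *SSDDCS* at 0.03 and 0.01. At 60 min these peaks were at 0.42 and 0.19. The control's 5 to 30 kb region went the other way at 20 min, to -0.14 (-0.16 to -0.11), while that of *SSDDCS* was at 0.05 (0.02 to 0.07).

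**Figure D2:**
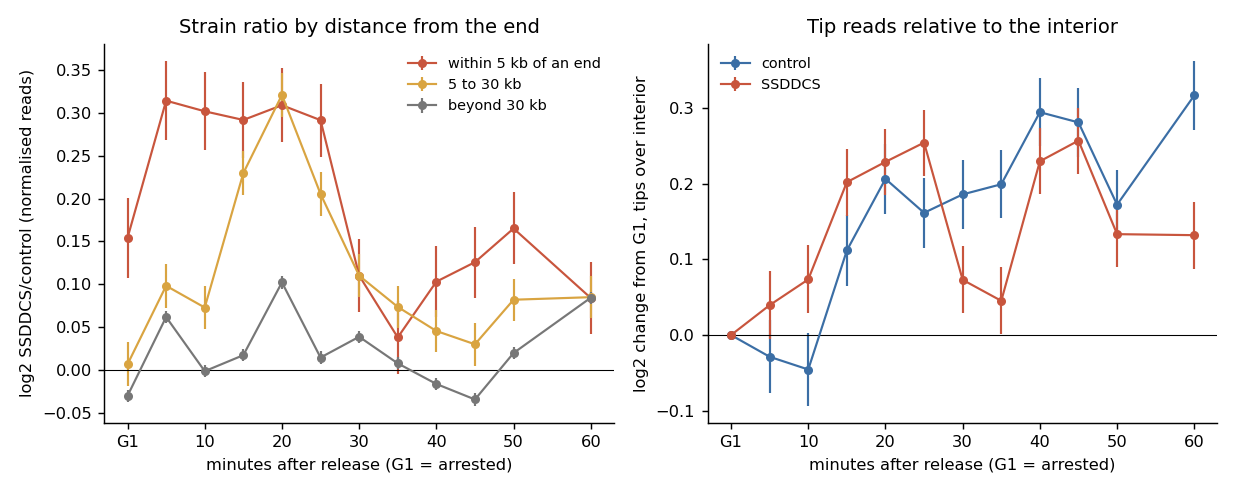
Left, log2 *SSDDCS*/control ratio of normalised reads in G1 and from 5 to 60 min, for peaks within 5 kb of an end, at 5 to 30 kb and beyond 30 kb. Right, log2 change from G1 of tip reads over interior reads in each strain. Bars are 95% counting intervals. The tips stood near 0.30 from 5 to 25 min, and the 5 to 30 kb region met them at 20 min.

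Scaled to the library total, the reads of Y′ ends were higher at 20 to 30 min than in G1 in both strains. Those of X-only ends were higher in *SSDDCS* alone. At Y′ ends the pooled reads of 20, 25 and 30 min were above G1 by 0.36 (0.31 to 0.40) in the control and 0.40 (0.36 to 0.44) in *SSDDCS*. At X-only ends they were at -0.04 (-0.11 to 0.03) in the control and 0.16 (0.09 to 0.22) in *SSDDCS*. All 17 Y′ ends were above G1 in both strains, and 7 of 15 X-only ends were below G1 in the control against 1 in *SSDDCS* (XIR, -0.05). Against the interior, Y′ ends had 0.30 in the control and 0.26 in *SSDDCS*, and X-only ends -0.10 (-0.17 to -0.03) and 0.01 (-0.05 to 0.08). X-only ends were then below G1 in the control and level with G1 in *SSDDCS* within counting error. Over single-copy peaks the change from G1 was 0.24 in the control and 0.18 in *SSDDCS* at Y′ ends (17 peaks), and 0.03 and 0.17 at X-only ends (208 peaks). The strain ratio after G1 was 0.15 (0.13 to 0.16) at Y′ ends and 0.29 (0.27 to 0.32) at X-only ends, and in G1 0.13 and 0.20.

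**Figure D3:**
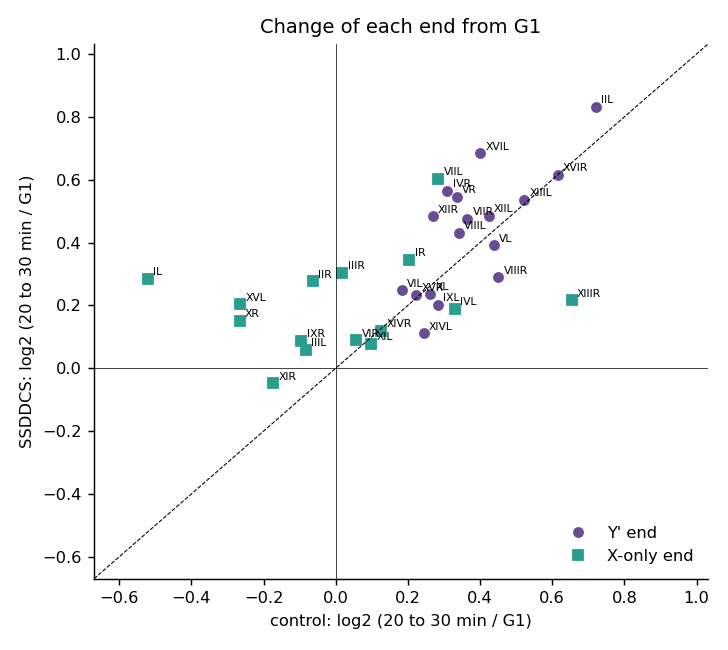
Log2 change of the reads within 5 kb of each of the 32 ends between G1 and 20 to 30 min pooled, control on the horizontal and *SSDDCS* on the vertical axis; the dashed line marks equal change. All 17 Y′ ends (circles) lie above 0 in both strains, and 7 X-only ends (squares) lie below 0 in the control.

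End by end, the ratio after G1 was above 0 at all 32 ends, and its counting interval lay above 0 at 31. The exception was IXL, at 0.03 (-0.03 to 0.09). With totals outside the ribosomal DNA, 31 ends were above 0 and 27 had an interval above 0. In G1, scaled to the library total, the ratio was above 0 at 26 of 32 ends, with a median of 0.12 against 0.20 after G1. The G1 interval was above 0 at 7 ends and spanned 0 at 25. As G1 has 1 library per strain and the later value pools all timepoints after it, the G1 intervals are wider. The counts of intervals above 0 in G1 and after G1 therefore cannot be compared. The ratio of 5 to 25 min exceeded that of 30 to 60 min at 29 of 32 ends, and at 17 of 17 Y′ ends, and the count of 29 was the same in both scalings. As Y′ ends share sequence, the values of these ends are not independent of each other. Over single-copy peaks, which 21 ends hold, the ratio after G1 was above 0 at 19.

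The highest ratios after G1 were at X-only ends. IR ranged from 41.0 to 83.0 normalised reads in the control and from 66.1 to 104 in *SSDDCS*, with a ratio of 0.44 (0.30 to 0.58). IIIL had 163 to 261 and 239 to 344 reads, with 0.40 (0.32 to 0.48). VIIL, with 8.85 to 24.6 and 13.8 to 29.5 reads, had 0.39 (0.11 to 0.68), and XVL 0.36 (0.28 to 0.44). These 4 intervals overlapped each other. The VIIL value rests on few reads, 71.9% of them at a single peak, and over its single-copy peaks the ratio was not above 0. The lowest ratios were at Y′ ends. IXL was followed by XVR with 0.09 (0.03 to 0.14), XIIL with 0.09 (0.03 to 0.15) and XIVL with 0.10 (0.03 to 0.16), and these overlapped too. In G1, the highest values were IVL with 0.71 (0.27 to 1.15), XIIIR with 0.71 (0.30 to 1.13) and VIIIR with 0.46 (0.25 to 0.67).

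**Figure D4:**
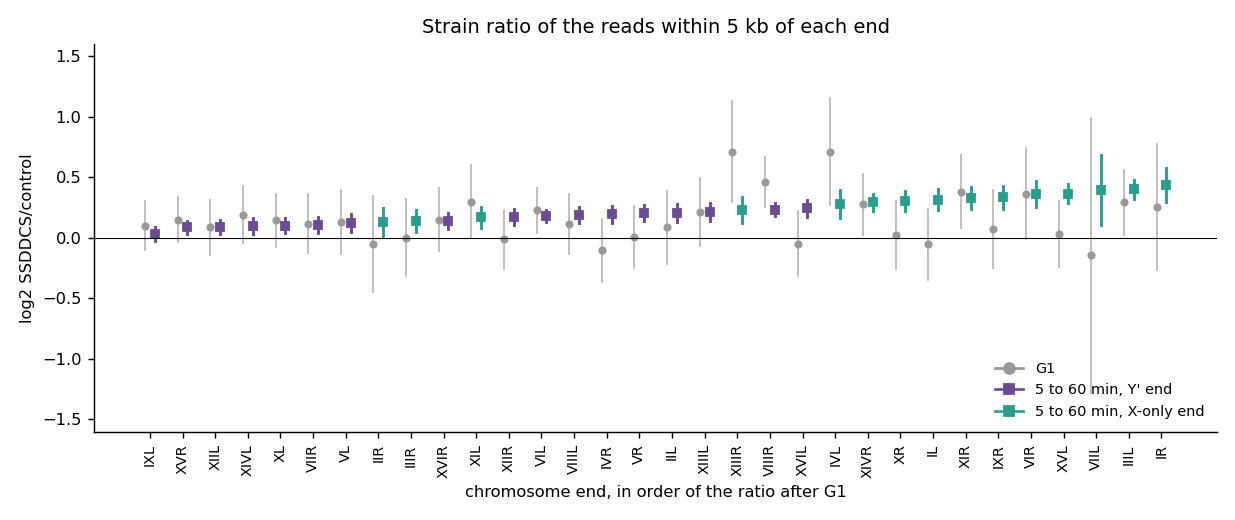
Log2 *SSDDCS*/control ratio of the reads within 5 kb of each of the 32 ends, in G1 (grey circles) and pooled from 5 to 60 min (squares), with 95% counting intervals, in order of the later ratio. All squares lie above 0, from 0.03 at IXL to 0.44 at IR, and 31 of their intervals do not reach 0.

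The ends also differed in their level. VIL held the most reads (a mean of 554 normalised reads), then XVR (544), VIIIR (464) and IXL (447). The fewest were at VIIL (18.6), IR (74.8), IIR (110) and IVL (115). At VIL the strongest peak made up 33.8% of the reads of the tip, at XIIL 43.2%, at XIIIR 49.8% and at VIIL 71.9%. The value of an end could thus rest largely on a single peak.

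VIIL stood apart. Of its 29 tip peaks, 25 held no read in any of the 24 libraries, and these were all the tip peaks without a read. No other end had such a peak within 5 kb, against 55 peaks without a read in the whole table. On that arm the run of unread peaks went from position 1482 to 5883 and held 31 peaks, and COS12, a member of the COS family of membrane proteins, and YGL262W lie across it. The next peak, at 6383, had a mean of 4.37 reads. With 12177560 reads over the 24 libraries, a count of 0 allows up to a share of 2.46e-05% at a peak. Whether the cells used here carry this segment was not tested.

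Among high-confidence tip peaks, the study's criterion of a 2-fold difference at 1 or more timepoints after G1 was met by 242 of 359 (67.4%), beside 64.1% of the high-confidence peaks outside the tips, so the share met was close to the background. The directions were unequal. Tip peaks 2-fold higher in *SSDDCS* numbered 214 (59.6%, background 38.8%) and lower ones 76 (21.2%, background 40.5%). At 3 or more timepoints, 41 were higher (11.4%, background 3.49%) and 5 lower (1.39%, background 2.55%). In G1, 29 were higher (8.08%, background 3.92%) and 17 lower (4.74%, background 4.4%). With totals outside the ribosomal DNA, 200 were higher (background 35.9%) and 80 lower (background 43.1%).

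Pooling the 11 timepoints gave more reads behind each ratio. Of the 535 tip peaks with 100 or more pooled reads, 66 were at least 1.5-fold higher in *SSDDCS* (12.3%, background 4.37%) and 1 was lower (0.187%, background 1.56%), and 428 lay above a log2 ratio of 0 (80%, background 53.3%). Their median was 0.20, beside 0.02 outside the tips and 0.13 at 5 to 30 kb. The other 181 tip peaks had fewer reads, and 180 of them lay at X-only ends. By class, 31 of the 66 higher peaks were among the 374 counted peaks of Y′ ends without a motif, 8 among the 13 of the X telomere and 27 among the 106 of the X-only flank. None were among the 15 repeat, 15 Reb1 and 12 Abf1 windows counted.

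By the rule for single peaks, 52 were at least 1.5-fold higher with that sign at 9 or more of the 11 timepoints (9.72% of the 535, background 3.21%), and 0 met the rule in the other direction (background 0.841%). The highest was the YRF1-3 peak of VIIR, at 783 bp, which had 0.97 to 9.89 normalised reads in the control (median 4.93) and 0.00 to 26.9 in *SSDDCS* (median 11.3), with a ratio of 1.10. VIIIR at 1028 bp had 1.89 to 8.99 and 4.02 to 19.3 reads, with 1.09. XIIL at 985 bp had 2.86 to 10.3 and 5.90 to 21.6, with 0.98. These levels are low, and the ranges of the strains overlapped at each of the 3 peaks. The others were XVL at 930 bp (0.95), IIIL at 2881 bp (0.94), XL at 780 bp (0.93, with 4.77 to 18.99 reads in the control and 10.8 to 34.5 in *SSDDCS*), XVR at 726 bp inside YRF1-8 (0.85) and VR at 782 bp inside YRF1-2 (0.83). YRF1 genes encode the Y′ DNA helicases, and 160 of the 393 peaks of Y′ ends lay inside them, although no YRF1 gene starts within 5 kb of an end.

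Of these 8 peaks, 6 lay 726 to 1028 bp from a Y′ end, where part of the sequence is shared. The 51 bases in capitals in the VIIR window occurred 15 times within the tips and 2 times outside. A tip peak lay within 75 bp of 8 of the copies, which were 701 to 1033 bp from 8 ends. The ratio of these peaks after G1 was between 0.47 and 1.10, with a median of 0.77, all 8 were above 0 and 6 were past 1.5-fold. Since a read of this sequence could be placed at any copy, the 8 values are not independent. The 51 bases were taken from the peak with the highest ratio. The VIIR, VIIIR, XIIL and VR peaks among the 8 had already been named by that ratio. The values are thus a description and no separate support.

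The classes by sequence followed different courses, as the plot of the 6 classes shows. The 17 telomeric repeat windows, at 16 ends and 14 of them at X-only ends, summed to 524 normalised reads in the lowest control library, a median of 907 and 1248 in the highest, and to 948, 1107 and 1320 in *SSDDCS*. The strain ratio was 0.54 (0.40 to 0.69) in G1, 1.06 (0.91 to 1.21) at 5 min and 0.95 (0.80 to 1.10) at 10 min, was 0.27 at 20 min and 0.06 at 30 min, and ended at -0.08 at 60 min. The control's repeat windows went from -0.31 (-0.47 to -0.15) against G1 at 5 min to 0.94 at 60 min, whereas those of *SSDDCS* stayed between 0.06 and 0.48 above G1. Against the interior of the same libraries, 20 to 30 min pooled was at 0.38 (0.25 to 0.50) in the control and 0.09 (-0.01 to 0.20) in *SSDDCS*. Without VIIIR, VIL and XIVR, the ends of the 3 strongest repeat windows, the ratio was 0.45 in G1 and 0.59 over 5 to 25 min, against 0.70 with them.

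The 15 Reb1 windows, at 14 Y′ ends and all within 500 bp of the end, differed little between the strains. They summed to 1117 to 1694 normalised reads in the control (median 1304) and 1063 to 1574 in *SSDDCS* (median 1284), and 9 also held the Tbf1 letters. Their ratio was 0.10 (-0.01 to 0.20) in G1 and -0.07 (-0.10 to -0.03) after G1. At 20 to 30 min they were below G1, at -0.21 (-0.30 to -0.12) in the control and -0.32 (-0.41 to -0.23) in *SSDDCS*, and 12 of 15 windows were below G1 in each strain. Of the 15 windows 14 were multicopy, so they can share reads and are not separate observations. The single-copy window, that of XIIL, was not below G1, at 0.04 in the control and 0.07 in *SSDDCS*. In the interior, 335 high-confidence Reb1 windows were at -0.47 (-0.51 to -0.43) and -0.55 (-0.59 to -0.51), lower than those of the tips in both strains. Without XIIL, the end of the strongest Reb1 window, the tip values were -0.25 and -0.38. The 310 other peaks of the same 14 ends, of which 6 were single-copy, were at 0.61 and 0.69.

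At 20 to 30 min the 13 Abf1 windows were lower than in G1 in the control, and much less so in *SSDDCS*. They lay 1 each at 13 X-only ends, 12 of them inside the annotated telomere, and summed to 201 to 397 reads in the control (median 235) and 250.0 to 381 in *SSDDCS* (median 296). The strain ratio in G1 was -0.03 (-0.24 to 0.18). At 20, 25 and 30 min the control was at -0.80 (-1.05 to -0.56), -0.81 (-1.06 to -0.56) and -0.73 (-0.97 to -0.49) against G1, and *SSDDCS* at -0.20 (-0.42 to 0.03), -0.04 (-0.26 to 0.18) and -0.15 (-0.37 to 0.07). The strain ratio was 0.58 (0.31 to 0.84), 0.74 (0.48 to 1.00) and 0.55 (0.29 to 0.80) at those times. Pooled over 20, 25 and 30 min, 12 of 13 windows were below G1 in the control and 7 of 13 in *SSDDCS*, with sums of -0.78 (-0.97 to -0.59) and -0.13 (-0.31 to 0.05). Of the 13 windows 8 were multicopy, so they can share reads and are not all separate observations. The control stayed low, at -0.70 (-0.95 to -0.46) at 60 min. Over 30 to 60 min pooled, both strains were below G1, at -0.63 in the control and -0.25 in *SSDDCS*. Against the interior of the same libraries the values pooled over 20 to 30 min were -0.84 (-1.03 to -0.65) and -0.27 (-0.45 to -0.09).

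Single Abf1 windows varied around these sums. At each of the 5 strongest (XR, IIIL, IL, IIIR and XVL) the control was below G1 at 20 to 30 min, and further below it than *SSDDCS*. The central 51 bases of XR, IIIL and IIIR each occur 3 times in the reference. At the single-copy windows (IL, VIR, XIL, XIR and XVL) the control was also below G1, and lower against G1 than *SSDDCS*. XR at 579 bp had 72.9 reads in the control's G1 and a mean of 32.2 at 20 to 30 min, against 67.8 in G1 for *SSDDCS* and 53.8 at 20 to 30 min. IIIL at 829 bp went from 62.4 to 37.5 in the control, and from 58.0 to 57.5 in *SSDDCS*. IL at 529 bp went from 51.1 to 29.3 in the control, and from 36.4 to 39.4 in *SSDDCS*. The change was smaller in the control at IIIR, from 30.3 to 24.4, against 38.3 to 40.7 in *SSDDCS*. At XVL both strains were lower, from 42.6 to 21.7 in the control and from 42.2 to 30.1 in *SSDDCS*, as they were at XIR (14.2 to 6.91 and 21.6 to 14.0). XIIIR, with a mean of 5.49 reads, went the other way (3.78 to 5.26 and 10.8 to 5.49). At VIR (176 bp, at the annotated origin ARS610) the control went from 21.8 to 13.5 and *SSDDCS* from 18.7 to 19.5. The 625 high-confidence Abf1 windows of the interior were at -0.37 (-0.40 to -0.34) in the control and -0.39 (-0.42 to -0.36) in *SSDDCS*, and the tip windows lay below them in the control and above them in *SSDDCS*.

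Away from the motifs, the 375 other peaks of Y′ ends were above G1 in both strains, and earlier in *SSDDCS*. The control reached 0.08 at 10 min, 0.33 at 15 min, 0.47 (0.41 to 0.54) at 20 min and 0.65 (0.59 to 0.72) at 40 min. *SSDDCS* was at 0.34, 0.53 and 0.68 (0.61 to 0.74) at 10, 15 and 20 min and at 0.64 at 40 min. The strain ratio was highest at 10 min, 0.37 (0.31 to 0.44), and 0.06 at 35 min. Of the 375 peaks 361 were multicopy. Over the 14 single-copy peaks the values at 20 to 30 min were 0.18 in the control and 0.11 in *SSDDCS*, against 0.53 and 0.62 over all 375, and the order of the strains was then turned. Long and short Y′ forms had pooled ratios of 0.20 (0.17 to 0.22) and 0.19 (0.16 to 0.21) after G1.

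**Figure D5:**
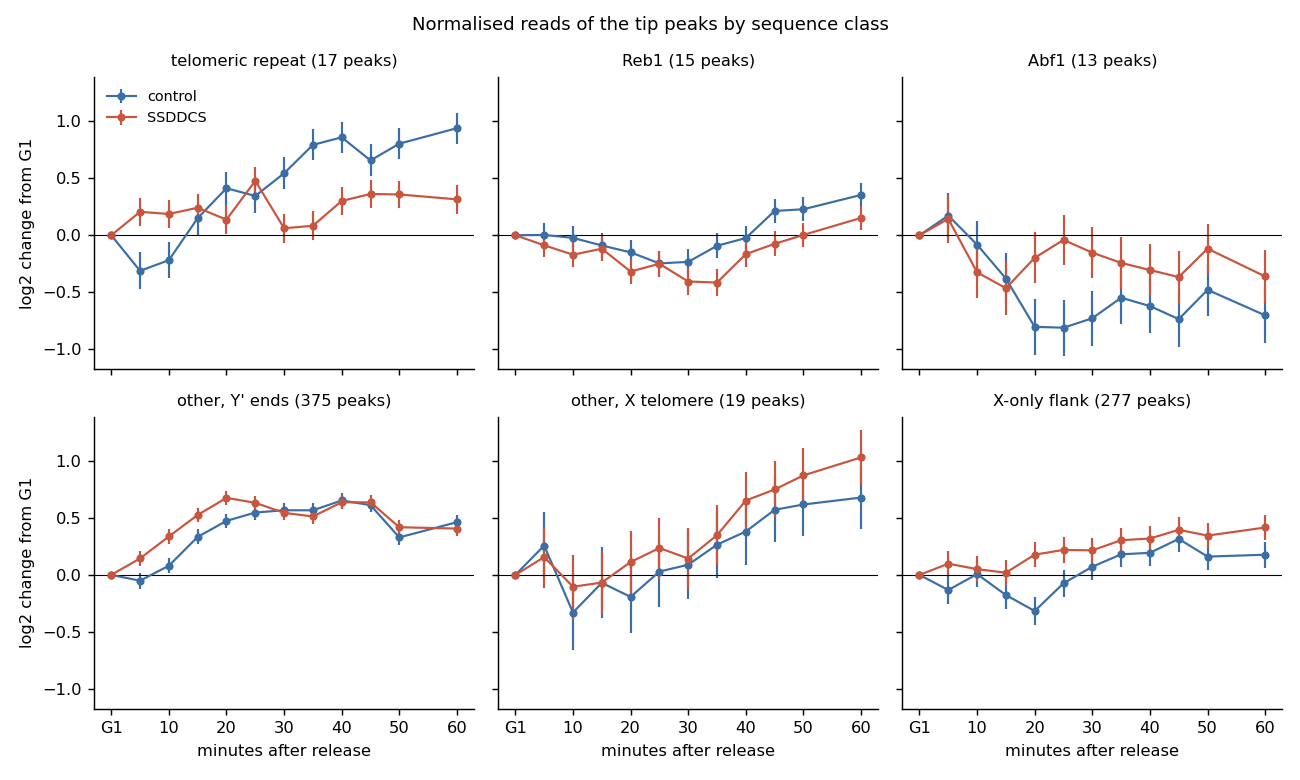
Log2 change from G1 of the normalised reads in 6 sequence classes of tip peaks, by minutes after release, in the control and in *SSDDCS*, with 95% counting intervals. Abf1 windows of the control were near -0.80 at 20 and 25 min while those of *SSDDCS* were at -0.20 and -0.04, and repeat windows of the control ended at 0.94.

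In the X-only flank the control was below G1 in mid S phase, as in its 5 to 30 kb region. The 277 peaks of the flank were at -0.32 (-0.44 to -0.19) against G1 in the control at 20 min and at 0.18 (0.07 to 0.29) in *SSDDCS*, a strain ratio of 0.59 (0.47 to 0.71), and by 40 min both were above G1, at 0.19 and 0.32. Its 25 high-confidence peaks alone were at -0.54 in the control and -0.11 in *SSDDCS* over 20 to 30 min, so the value above 0 in *SSDDCS* came from the weaker peaks. Against the interior, all 277 were at -0.16 (-0.25 to -0.06) and 0.06 (-0.03 to 0.15) over those times. The 19 other peaks of the X telomere were higher in *SSDDCS* at 11 of 11 timepoints, with a ratio of 0.54 (0.46 to 0.62) after G1, and at 60 min they were at 0.68 in the control and 1.03 (0.79 to 1.27) in *SSDDCS* against G1.

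Few genes with a standard name start within 5 kb of an end. The 5 COS genes there (COS2, COS5, COS7, COS10 and COS12) had 46 peaks inside or within 1000 bp upstream, with a pooled ratio of 0.19 (0.09 to 0.29). COS12 lies in the stretch of VIIL whose peaks held no read. Its peaks there count among the 46 but add nothing to the ratio. The 5 genes of the PAU family of cell wall mannoproteins (PAU6, PAU8, PAU16, PAU19 and PAU24) had 27 peaks and a ratio of 0.21 (0.12 to 0.30). AAD3 and AAD15, which encode putative aryl-alcohol dehydrogenases, had 14 peaks and 0.19 (0.07 to 0.31). PHO11, an acid phosphatase, and ERR3, an enolase-related gene, had 15 peaks and 0.35 (0.19 to 0.51). Of the peaks with 100 or more reads, 2 of 10 (COS), 3 of 16 (PAU), 1 of 9 (AAD) and 3 of 6 (PHO11 and ERR3) were at least 1.5-fold higher and 0 lower, beside 12.3% of tip peaks and the background of 4.37%. No gene of the FLO, HXT, SEO1 or IMD families starts there. The values of the COS, PAU and AAD families lay near the 0.19 of all tip peaks and their intervals included it, whereas the interval of PHO11 and ERR3 lay just above it, and their ratio in G1 was 0.72.

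The strongest peak of each family was not among the most different. The peak 79 bp upstream of COS2 had 9.99 to 28.0 reads in the control and 9.12 to 26.2 in *SSDDCS*, with a ratio of -0.05. That 365 bp upstream of PAU6 had 28.1 to 52.0 and 32.6 to 56.4 reads, with 0.24. That 201 bp upstream of AAD3 had 16.8 to 42.9 and 20.1 to 37.3 reads, with 0.07. The peak 586 bp upstream of ERR3, which also lies 423 bp upstream of SNO4, had 1.98 to 8.85 and 1.959 to 10.8 reads, with -0.28. The strains overlapped in range at each of the 4.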

How the data were processed

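Sub-nucleosomal MNase-seq of 24 libraries was used, 1 for each strain and timepoint. Per the submitters' processing notes and the study's methods, reads were mapped with Bowtie2 2.2.6 and SAMtools 0.1.19 to sacCer3, fragments under 100 bp were kept, libraries were subsampled to equal numbers per fragment size, and peaks were called on all libraries merged. The authors deposited read counts per peak and the position of each peak, and neither the base counted as position 1 nor the width over which reads were counted is given in the sources used here. Equal subsampling removes differences in total yield, so values are shares of a library.

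Counts were divided by the library total over all peaks and multiplied by the mean total, giving normalised reads. Strain ratios carry exact conditional binomial (Clopper-Pearson) intervals, and changes from G1 carry delta-method intervals. The per-timepoint calls used log2(normalised reads + 1), a pseudocount chosen here. The high-confidence minimum of 75 and the 2-fold criterion were taken from the study, but the 8217 high-confidence peaks found here are not the same number as in the study, and the criterion, which the study used for peaks upstream of genes, was applied at all positions. Ratios of pooled reads used 1.5-fold and 100 reads. No 2 libraries held identical counts, and 0 count columns lacked a sample. Python 3.11.15, numpy 2.4.6, pandas 2.3.3 and scipy 1.17.1 were used, and the pooled calls and intervals were tested on simulated data. Genes, telomere elements and sequence came from RefSeq R64, whose chromosome lengths match those of the files.

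Named peaks were the 10 with the highest mean, up to 8 in each direction past 1.5-fold with the same sign at 9 or more timepoints, and the strongest peak of each gene family. Named ends were the 4 with the most and the 4 with the fewest reads, and the 4 highest and 4 lowest ratios among ends with 200 or more raw reads over all libraries, which held for all 32. Members, gene lists and sequence classes were chosen with earlier results of these data known. Alternatives were another scaling, other window widths, subsets of peaks and ends, other thresholds and pseudocounts, and leaving out single ends and timepoints.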

Additional observations from a re-analysis of the deposited data

How the results depend on the processing

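No paired analysis was possible because each strain and timepoint has 1 library, and no value has a replicate error. Strain ratio of the tips after G1 (0.19): it was 0.16 within 10 kb, 0.17 over high-confidence and 0.27 over low-confidence peaks, 0.27 over single-copy peaks, 0.20 as the median of the 32 ends and 0.15 scaled outside the ribosomal DNA, and 0.18 to 0.21 with single ends or timepoints left out. The excess at 20 min over G1 (0.15) was 0.087 within 2.5 kb, 0.30 over low-confidence peaks and 0.0084 scaled outside the ribosomal DNA, and 0.14 to 0.17 without single ends. The control's change at 20 min relative to the interior (0.21) was 0.084 within 10 kb, 0.28 as the median of ends and -0.0039 over single-copy peaks, and 0.19 to 0.23 without single ends. That of *SSDDCS* (0.23) was 0.18 within 2.5 kb, 0.13 within 10 kb, 0.38 over low-confidence peaks, 0.011 over single-copy peaks and 0.18 as the median of ends, and 0.21 to 0.24 without single ends. At 20 min the relative gain of the tips was thus not seen over single-copy peaks in either strain. The count of 242 peaks past 2-fold was 61 at 3-fold, 22 with a pseudocount of 10 and 37 (of 57) over single-copy peaks, the outside share moving with it (15.4% at 3-fold, 4.73% with the pseudocount of 10). The 67 pooled calls were 105 with 50 reads and 31 with 200. All 32 ends were above 0, and over single-copy peaks, which 21 ends hold, 19 of these 21 were (VIIL and XIIL were not). Alternatives chosen after seeing the data: over single-copy peaks the control's change relative to the interior was -0.073 at 15 min (from 0.11) and 0.42 at 60 min (from 0.32), that of *SSDDCS* 0.033 (from 0.20) and 0.19 (from 0.13), Y′ ends at 20 to 30 min were at 0.24 and 0.18 (from 0.36 and 0.40) with a strain ratio after G1 of 0.18 (from 0.15), the control's X-only ends at 0.030 (from -0.042), and the other Y′ peaks (0.53 and 0.62) at 0.18 and 0.11, and the X-only flank was -0.54 in the control and -0.11 in *SSDDCS* over high-confidence peaks. Leaving out single ends gave -0.83 to -0.69 and -0.16 to -0.08 for Abf1 windows in the control and *SSDDCS*, 0.40 to 0.47 and 0.21 to 0.27 for repeat windows, 0.51 to 0.57 and 0.60 to 0.66 for the other Y′ peaks, and -0.12 to -0.07 and 0.18 to 0.23 for the flank. Of 155 values with single ends or timepoints left out, 154 stayed within counting error, and of the 70 other alternatives 35 did, or stayed within 1.5 times for counts. Depth limits single peaks most, with a median of 8.39 reads a library at the tips.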
